A study of Mus musculus with 8 samples.

Results

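Expression of 8 core pluripotency factors, Pou5f1 (which encodes Oct4), Sox2, Nanog, Sall4, Zfp42 (which encodes Rex1), Utf1, Fbxo15 and Eras, was followed in 8 mouse embryonic stem cell (ESC) lines that differ in their Zfp281 genotype. The 8 genes were chosen by symbol out of the 18193 genes that the Affymetrix Mouse Genome 430 2.0 array measures with at least 1 probe set of their own. They carried 11 probe sets, and the value of each gene was taken from its brightest probe set, by the mean of all 8 arrays. The 3 Zfp281 null lines were 7, 3.34 and 3.38, the 2 heterozygous lines were 5 and 3.1, and the 3 wild-type lines were 3, 3.2 and 3.3, with 1 array for each line. In the targeted allele, which came from CJ7 ESCs, a floxed neomycin resistance cassette took the place of both exons of Zfp281. All lines, wild-type included, came from blastocysts that heterozygous parents gave and were grown with serum and LIF on feeder layers of primary mouse embryonic fibroblasts, and no agent was added. A line was hybridized once, so the spread within a genotype, on which every p-value below rests, holds differences between lines together with technical error, and the small number of lines limits the precision of each value.

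Zfp281 is a zinc finger protein that binds DNA in ESCs. Oct4 and Sox2 are transcription factors that bind side by side to composite DNA elements, and together with the homeodomain protein Nanog they maintain the genes of the undifferentiated state, their own genes among them. Sall4 is a zinc finger partner of Oct4 and Nanog, Rex1 is a zinc finger marker that varies between cells of an ESC culture, and Utf1, Fbxo15 and Eras are targets of Oct4 and Sox2 that encode a chromatin protein, an F-box protein and a constitutively active Ras-like GTPase.

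Oct4 and Sox2 act on their own genes and on targets such as Eras. The 200 bases before the first listed start site are therefore shown for 5 of the 8 genes, from RefSeq sequences of build GRCm38.p6. A promoter was listed for 6 of the 8 genes, all but Sall4 and Fbxo15. Capitals mark 3 motifs, searched on both strands: an octamer, TTTGCAT or ATGCAAA, as bound by POU proteins, a Sox motif, ACAATG or CATTGT, and a G-rich motif, GGGAGGG or CCCTCCC, of the kind bound by zinc finger proteins such as Zfp281. An octamer and a Sox motif may share letters.
Pou5f1 (chr17:35505832-35506031, plus strand): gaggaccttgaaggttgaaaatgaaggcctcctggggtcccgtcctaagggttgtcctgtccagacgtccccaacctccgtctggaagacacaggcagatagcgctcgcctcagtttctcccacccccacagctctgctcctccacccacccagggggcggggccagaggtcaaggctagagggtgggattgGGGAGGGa
Sox2 (chr3:34649795-34649994, plus strand): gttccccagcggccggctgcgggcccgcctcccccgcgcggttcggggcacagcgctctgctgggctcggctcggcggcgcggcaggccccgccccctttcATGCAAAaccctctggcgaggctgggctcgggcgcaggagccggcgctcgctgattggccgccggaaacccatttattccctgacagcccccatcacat
Nanog (chr6:122707289-122707488, plus strand): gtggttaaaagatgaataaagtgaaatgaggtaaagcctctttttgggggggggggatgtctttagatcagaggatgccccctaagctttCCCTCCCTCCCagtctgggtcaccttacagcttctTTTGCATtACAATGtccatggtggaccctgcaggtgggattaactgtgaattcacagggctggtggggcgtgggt
Zfp42 (chr8:43307010-43307209, minus strand): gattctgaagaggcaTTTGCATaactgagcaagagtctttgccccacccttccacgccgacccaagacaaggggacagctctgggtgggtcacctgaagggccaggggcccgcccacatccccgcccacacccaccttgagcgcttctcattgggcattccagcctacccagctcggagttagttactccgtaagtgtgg
Eras (chrX:7928608-7928807, minus strand): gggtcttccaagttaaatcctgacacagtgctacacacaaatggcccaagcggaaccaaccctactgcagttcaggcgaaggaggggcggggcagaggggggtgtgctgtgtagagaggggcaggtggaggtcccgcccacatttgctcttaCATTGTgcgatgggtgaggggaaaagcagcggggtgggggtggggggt

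The Nanog window holds an octamer 75 bases before the start and a Sox motif 1 base after its end, the layout of an Oct4 and Sox2 composite element, with 2 overlapping G-rich motifs upstream of them. An octamer without a Sox motif lies 99 bases before the start of Sox2 and 185 bases before that of Zfp42. The Pou5f1 window holds a G-rich motif 8 bases before the start, and the Eras window a Sox motif 48 bases before it. Of the windows not shown, that of Utf1 holds a G-rich motif 118 bases before the start. That of the second listed Pou5f1 start holds a Sox motif 158 bases before it and no G-rich motif. Of the 32851 windows of this length in the table, 3.28% hold the octamer, 8.58% the Sox motif and 17.3% the G-rich motif, and the octamer and Sox pair at this spacing was found in 2, which are the windows of the 2 listed Nanog starts. These matches describe the letters in the window and say nothing of binding in these lines.

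The targeted gene was checked first, on both of its probe sets. On the brighter one, 1426377_at, which stands for Zfp281 in the fit of all genes, the log2 values were 3.64, 5.06 and 5.23 in null lines 7, 3.34 and 3.38, 6.69 and 6.97 in the heterozygous lines 5 and 3.1, and 6.88, 7.93 and 6.72 in wild-type lines 3, 3.2 and 3.3. The log2 fold change in null against wild-type ESCs was −2.54 (SE 0.45, limma adjusted p = 0.0467). All null lines lay below all others there, and the heterozygous lines overlapped the wild-type lines. This call was kept in 5 of 21 other settings. Over all 21 the log2 fold change was between −3.57 and −0.79. On 1452045_at, Zfp281 had log2 values of 3.39, 2.96 and 2.94 in null lines 7, 3.34 and 3.38, 6.74 and 6.74 in the heterozygous lines 5 and 3.1, and 7.19, 8.36 and 7.58 in wild-type lines 3, 3.2 and 3.3. The 3 genotypes did not overlap on this probe set. The log2 fold change in null against wild-type ESCs was −4.61 (SE 0.27, limma adjusted p = 0.00186 among single probe sets). In that fit of single probe sets 1426377_at had an adjusted p of 0.0543 from limma. On each probe set 2 of the 3 null lines were called present.

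In null against wild-type ESCs, Pou5f1 had the largest difference of the 8 factors, with a mean 2.44-fold higher and no overlap between lines. Sox2, Nanog and Fbxo15 had means 1.23-fold to 1.50-fold higher and Eras a mean 0.704 times that of wild-type lines, while the lines overlapped for Nanog, Fbxo15 and Eras. None of the 8 passed an adjusted p under 0.05 in limma, a threshold that 1.13% of all genes passed, and 5 of the 8, those just named, had an unadjusted p under 0.05, which 16.4% of all genes had. The mean was higher in null lines for 6 of the 8, against 46.8% of all genes, and the median log2 fold change of the 8 was 0.40, against −0.01 over all genes. Both values include Utf1, whose probe set was called absent on all arrays and had a difference of 0.20. The median was 0.50 with Utf1 left out. The 3 null lines lay above the 3 wild-type lines for 2 of the 8, Pou5f1 and Sox2, as they did for 11.1% of all genes, and below them for none, as they did for 11.2%. With the log2 signal values in place of the RMA values, 1 of the 8 was without overlap.

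**Figure D1:**
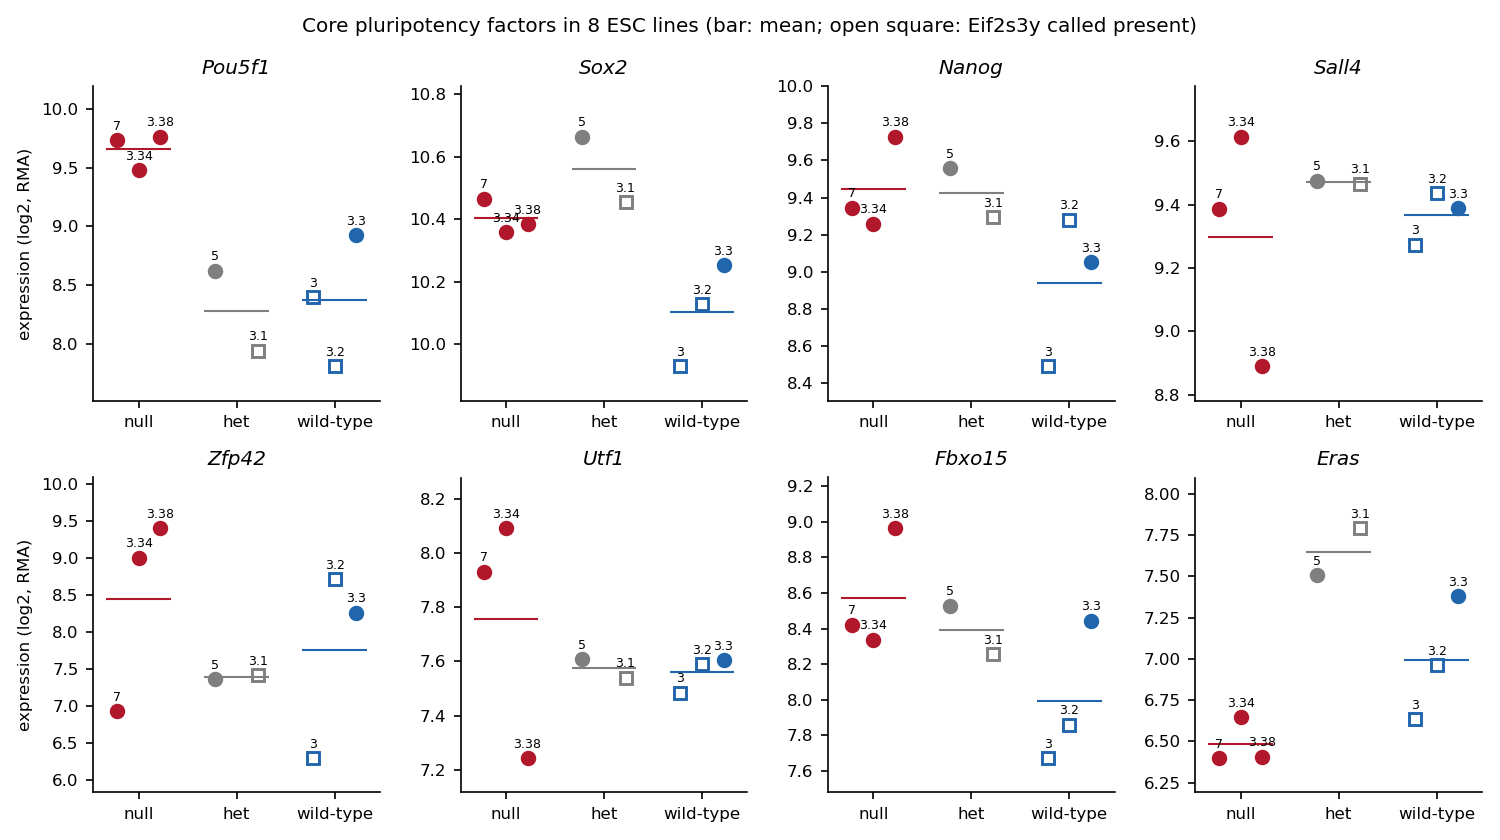
Expression (log2, RMA; each panel has its own axis) of the 8 factors in each ESC line, grouped as null, heterozygous and wild-type, with the line number beside each point and a bar at the mean of the genotype. Open squares are lines in which the Y-linked gene Eif2s3y was called present, and Pou5f1 lay between 9.48 and 9.77 in null lines and at most at 8.92 in any other.

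Pou5f1, whose product Oct4 is required for the undifferentiated state, had log2 values of 9.74, 9.48 and 9.77 in null lines 7, 3.34 and 3.38, 8.62 and 7.94 in the heterozygous lines 5 and 3.1, and 8.40, 7.81 and 8.92 in wild-type lines 3, 3.2 and 3.3. The 3 null lines were close to each other and above every other line, and the heterozygous lines lay within the range of the wild-type lines. The mean was 9.66 ± 0.16 in null lines and 8.38 ± 0.56 in wild-type lines (SD, 3 lines each), a log2 fold change of 1.29 (standard error, SE, 0.28, 95% interval 0.64 to 1.93, limma adjusted p = 0.0715). Among 21 other settings the log2 fold change stayed above 0, between 0.55 and 1.56, with adjusted p values from limma of 0.0392 to 0.9999. It passed when only genes called present in every line of a genotype were tested (adjusted p = 0.0392 from limma), and without wild-type line 3.3, where the log2 fold change was 1.56 (adjusted p = 0.0438 from limma).

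Lines also differed in a Y-linked gene and in RNA measures, and whether these follow the level of Pou5f1 within a genotype was not tested. Eif2s3y, the Y-linked gene of a translation initiation factor subunit, was called present in wild-type lines 3 and 3.2 and heterozygous line 3.1, at log2 values of 6.02, 5.67 and 6.13, and was between 2.38 and 2.95 in the other 5 lines, all null lines among them. Of the other Y-linked genes looked at, Uty and Kdm5d were called absent on all arrays. Among lines that are not null, Pou5f1 was at 8.62 and 8.92 in the 2 without an Eif2s3y call, heterozygous line 5 and wild-type line 3.3, and between 7.81 and 8.40 in the 3 with one. With the Eif2s3y call as a covariate, the log2 fold change of Pou5f1 in null against wild-type ESCs was 0.78 (SE 0.21, limma adjusted p = 0.279), and over the 5 lines without the call it was 0.74 (SE 0.18, limma adjusted p = 0.470). No null line had the call, and only 1 wild-type line lacked it.

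The 3′ minus 5′ difference of control probe sets for Gapdh and beta-actin, which grows as RNA or cDNA gets shorter, was between 2.68 and 3.71 in null, 4.49 and 4.80 in heterozygous and 4.23 and 4.86 in wild-type lines. With it as a covariate the log2 fold change of Pou5f1 was 0.55 (SE 0.51, limma adjusted p = 0.9999), that of Sox2 was 0.01, that of Nanog 0.34 and that of Fbxo15 0.23. In the same fit Eras was at −0.65 and Zfp42 at 2.12, with an SE of 1.44. The deleted gene Zfp281 was at −0.79 (SE 0.59) there, against −2.54 without the covariate, and 0 of all genes passed. All null lines lay below all other lines in this 3′ minus 5′ difference, so the fit cannot separate it from the null genotype. Of 16 feeder fibroblast markers 15 were measured, of which 10 were called present in all 8 lines, and no measured marker was absent from all of them. None passed in limma, where 3 of the 15 had an unadjusted p under 0.05, against 16.4% of all genes. A higher mean in null lines was found for 46.8% of all genes, while all 15 markers had a lower mean there. Their summed signal, taken as deposited and not scaled between arrays here, was between 2414 and 3032 in null lines. It was between 4689 and 5388 in heterozygous and 3281 and 4400 in wild-type lines. On the RMA values, heterozygous and wild-type lines overlapped. There the mean log2 value of the markers was 6.72 to 6.88 in null, 7.30 to 7.68 in heterozygous and 6.92 to 7.73 in wild-type lines. With their mean log2 value as a covariate, the log2 fold change of Pou5f1 was 0.90 (adjusted p = 0.633 from limma). How far RNA quality, feeder cells or the Eif2s3y call contribute to the differences was not tested beyond these fits. In such mixed cultures fewer cells of a type and less RNA per cell cannot be told apart.

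**Figure D2:**
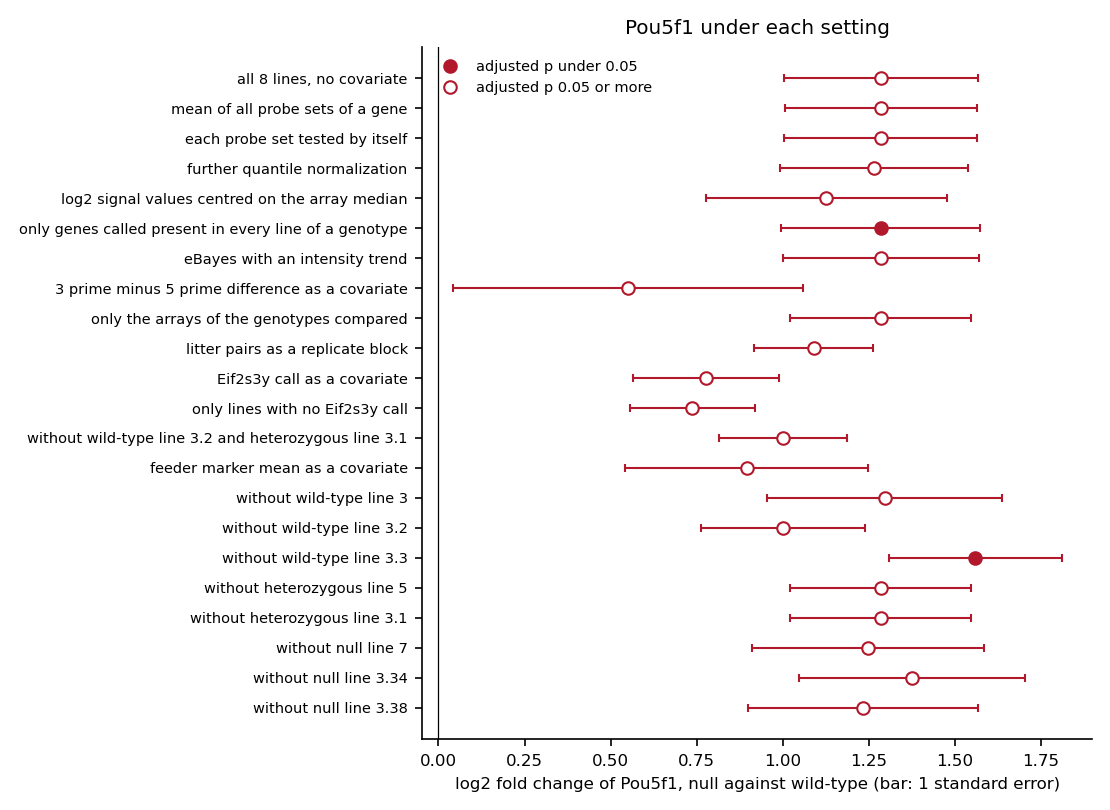
Log2 fold change of Pou5f1 in null against wild-type ESCs (point, with a bar of 1 standard error) in the fit of all 8 lines and in 21 other settings, filled where the adjusted p from limma was under 0.05. All points lie above 0, between 0.55 with the 3′ minus 5′ covariate and 1.56 without wild-type line 3.3.

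Sox2, the partner of Oct4 at composite elements, varied little between lines. Its log2 values were 10.47, 10.36 and 10.39 in null lines 7, 3.34 and 3.38, 10.67 and 10.46 in the heterozygous lines 5 and 3.1, and 9.93, 10.13 and 10.25 in wild-type lines 3, 3.2 and 3.3. All null and heterozygous lines lay above all wild-type lines, with the lowest null line at 10.36 and the highest wild-type line at 10.25. The log2 fold change in null against wild-type ESCs was 0.30 (SE 0.12, limma adjusted p = 0.256), and over the lines without an Eif2s3y call it was 0.15.

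Nanog, the homeodomain factor that keeps ESCs self-renewing, had log2 values of 9.35, 9.26 and 9.73 in null lines 7, 3.34 and 3.38, 9.56 and 9.29 in the heterozygous lines 5 and 3.1, and 8.49, 9.28 and 9.05 in wild-type lines 3, 3.2 and 3.3. Wild-type line 3 was the lowest of all lines, wild-type line 3.3 lay below the null lines and wild-type line 3.2 within their range. The log2 fold change in null against wild-type ESCs was 0.50 (SE 0.22, limma adjusted p = 0.296). It was 0.28 without wild-type line 3 and 0.39 over the lines without an Eif2s3y call.

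Fbxo15, an F-box protein gene used as a reporter of the ESC state, followed the same order of lines as Nanog at its ends, with wild-type line 3 lowest and null line 3.38 highest. Its log2 values were 8.42, 8.34 and 8.96 in null lines 7, 3.34 and 3.38, 8.53 and 8.26 in the heterozygous lines 5 and 3.1, and 7.67, 7.86 and 8.44 in wild-type lines 3, 3.2 and 3.3. Wild-type line 3.3 overlapped the null lines. The log2 fold change was 0.58 (SE 0.23, limma adjusted p = 0.263), and 0.13 over the lines without an Eif2s3y call.

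Zfp42, the gene of the zinc finger marker Rex1, had log2 values of 6.92, 9.00 and 9.40 in null lines 7, 3.34 and 3.38, 7.36 and 7.41 in the heterozygous lines 5 and 3.1, and 6.29, 8.71 and 8.26 in wild-type lines 3, 3.2 and 3.3. Null and wild-type ESCs each held 1 low line, 7 and 3, and a pair of high ones, so the spread within a genotype exceeded the difference between them. The log2 fold change in null against wild-type ESCs was 0.69 (SE 0.74, 95% interval −1.01 to 2.38, limma adjusted p = 0.756). It was −0.04 without wild-type line 3.

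Sall4, the zinc finger partner of Oct4, was measured by 2 probe sets, both called present in every line. On 1424152_at it had log2 values of 9.39, 9.61 and 8.89 in null lines 7, 3.34 and 3.38, 9.48 and 9.47 in the heterozygous lines 5 and 3.1, and 9.27, 9.44 and 9.39 in wild-type lines 3, 3.2 and 3.3. Null lines 3.34 and 3.38 were the highest and the lowest of all, and the log2 fold change was −0.07 (SE 0.17, limma adjusted p = 0.917). On 1424153_s_at the values were 5.90, 6.95 and 5.41 in null lines, 6.28 and 6.09 in the heterozygous lines and 6.49, 6.19 and 6.75 in wild-type lines, given for the lines as above. Null line 3.34 was again highest and null line 3.38 lowest, and the log2 fold change had the same sign, at −0.39 (SE 0.34, limma adjusted p = 0.734 among single probe sets). The 2 probe sets differed in sign for heterozygous against wild-type ESCs, at 0.10 and −0.29.

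Utf1, a chromatin protein gene of undifferentiated cells, was measured by 3 probe sets, none of which was called present in every line. The probe set with the highest mean, 1416899_at, was called absent on all 8 arrays, at log2 values of 7.93, 8.09 and 7.24 in null lines 7, 3.34 and 3.38, 7.61 and 7.54 in the heterozygous lines and 7.48, 7.59 and 7.61 in wild-type lines, and its difference between null and wild-type ESCs, 0.20 log2 units, is not above background and has no fold. The probe set 1443786_at was called present in all lines but wild-type line 3.2. It had log2 values of 6.84, 7.43 and 6.22 in null lines 7, 3.34 and 3.38, 6.55 and 6.58 in the heterozygous lines 5 and 3.1, and 6.61, 6.58 and 6.62 in wild-type lines 3, 3.2 and 3.3, a log2 fold change of 0.22 (SE 0.26, limma adjusted p = 0.812 among single probe sets) in null against wild-type ESCs. On both of these probe sets null line 3.34 was highest and null line 3.38 lowest, as for Sall4, and the wild-type and heterozygous lines differed by less than the null lines among themselves. The third probe set, 1458333_x_at, was called absent on all arrays.

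Eras, an X-linked gene whose product is a Ras-like GTPase of ESCs, had the largest difference among the factors whose mean was lower in null ESCs. On its single probe set, 1456511_x_at, whose probes may also match other transcripts, it had log2 values of 6.40, 6.65 and 6.41 in null lines 7, 3.34 and 3.38, 7.51 and 7.79 in the heterozygous lines 5 and 3.1, and 6.63, 6.96 and 7.38 in wild-type lines 3, 3.2 and 3.3. Null line 3.34 lay just above wild-type line 3, and both heterozygous lines lay above all others. The log2 fold change in null against wild-type ESCs was −0.51 (SE 0.19, limma adjusted p = 0.227), and over the lines without an Eif2s3y call it was −0.89 (adjusted p = 0.412 from limma).

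Heterozygous against wild-type ESCs asks whether 1 targeted allele changes the factors. Pou5f1 had means of 8.28 ± 0.48 in the 2 heterozygous lines and 8.38 ± 0.56 in the 3 wild-type lines (SD), and a 95% interval of the log2 fold change from −0.82 to 0.63. Sox2 and Eras had the largest differences for their error, with log2 fold changes of 0.46 (SE 0.13) and 0.66 (SE 0.21), both with an adjusted p of 0.997 from limma. None of the 8 passed, and 0% of all genes did, and 2 of them, Sox2 and Eras, were among the 701 genes (3.85%) with an unadjusted p under 0.05. Both heterozygous lines lay above all wild-type lines for 4 of the 8, Sox2, Nanog, Sall4 and Eras, as they did for 8.44% of all genes, and below them for none, as they did for 8.83%. The median log2 fold change of the 8 was 0.25, against 0.01 over all genes. Over the lines without an Eif2s3y call, which leave 1 heterozygous and 1 wild-type line, the log2 fold change of Eras was 0.13.

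Null and heterozygous ESCs, which share these same arrays with the comparisons above, differed most in Pou5f1 and Eras, in opposite directions. Pou5f1 was 2.60-fold higher in null lines, a log2 fold change of 1.38 (SE 0.32, limma adjusted p = 0.102), and Eras was at 0.446 times the heterozygous level, a log2 fold change of −1.16 (SE 0.21, limma adjusted p = 0.0680). The lines of the 2 genotypes did not overlap for either gene, where 13.3% of all genes lay wholly higher and 14.5% wholly lower in null lines. None of the 8 passed, and 0% of all genes did, while Pou5f1 and Eras were the 2 of the 8 with an unadjusted p under 0.05, which 2512 of all genes (13.8%) had. Eras passed when only genes called present in every line of a genotype were tested (adjusted p = 0.0439 from limma), with the wild-type arrays left out of the fit (adjusted p = 0.0446 from limma) and without wild-type line 3.3 (adjusted p = 0.0375 from limma). Pou5f1 passed without wild-type line 3.2 (adjusted p = 0.0399 from limma).

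**Figure D3:**
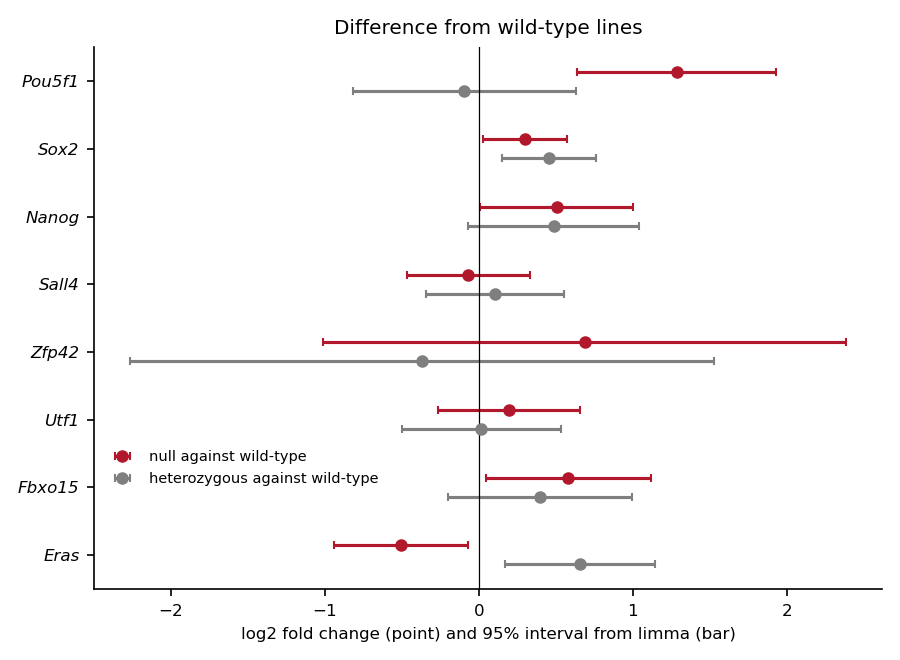
Log2 fold change of each factor against wild-type ESCs (point) with its 95% interval from limma (bar), for null lines (upper, red) and heterozygous lines (lower, grey). Pou5f1 reaches 1.29 in null and −0.09 in heterozygous ESCs, Eras lies on opposite sides of 0 in the 2 genotypes, and Zfp42 has the widest intervals; the Utf1 values come from a probe set called absent.

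The factors differed in how much they varied between lines of 1 genotype. The pooled SD within genotypes was 1.17 log2 units for Zfp42, higher than in 99.9% of the 5296 genes called present in all 8 lines, whose median was 0.26. Pou5f1 had 0.43, at the 85.3rd percentile, and Sox2, with 0.13, was at the 8.74th percentile. Nanog, Fbxo15, Sall4 and Eras had 0.31, 0.34, 0.24 and 0.27.

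A legend of the study names null line 7 with wild-type line 3, and null line 3.38 with wild-type line 3.3, as lines of the same litter. Zfp42 was low in both lines of the first pair, at 6.92 in null line 7 and 6.29 in wild-type line 3, and high in both lines of the second, at 9.40 in null line 3.38 and 8.26 in wild-type line 3.3. The null line was the higher one in both pairs for Pou5f1, by 1.34 and 0.84 log2 units, for Nanog, by 0.86 and 0.68, for Fbxo15, by 0.75 and 0.52, for Zfp42, by 0.63 and 1.14, and for Sox2, by 0.54 and 0.13. Eras was lower in the null line of both pairs, at −0.24 and −0.97. Sall4 differed in sign between the pairs, at 0.11 and −0.50, and so did Utf1, on a probe set called absent, at 0.45 and −0.36. The share of all genes with the same sign in both pairs was not counted. With the litter as a block and only these 4 lines, the log2 fold change of Pou5f1 was 1.09 (SE 0.17, limma adjusted p = 0.0625), and that of Nanog was 0.77 (SE 0.14, limma adjusted p = 0.0829). That of Zfp42 was 0.89 with an SE of 0.17 (limma adjusted p = 0.0915), where its SE was 0.74 in the fit of all 8 lines (limma adjusted p = 0.756). A fit of 4 lines holds little spread of its own, so the SEs with the block lean on the spread that limma shares over all genes. They are no measure of how much precision the pairing gains. Triml1, the nearest measured gene on one side of Zfp42, was looked at after the values were seen. It had log2 values of 5.73, 6.51 and 6.68 in null lines 7, 3.34 and 3.38, 6.48 and 6.01 in the heterozygous lines 5 and 3.1, and 5.89, 6.67 and 6.31 in wild-type lines 3, 3.2 and 3.3, so that lines 7 and 3 were lowest there too.

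**Figure D4:**
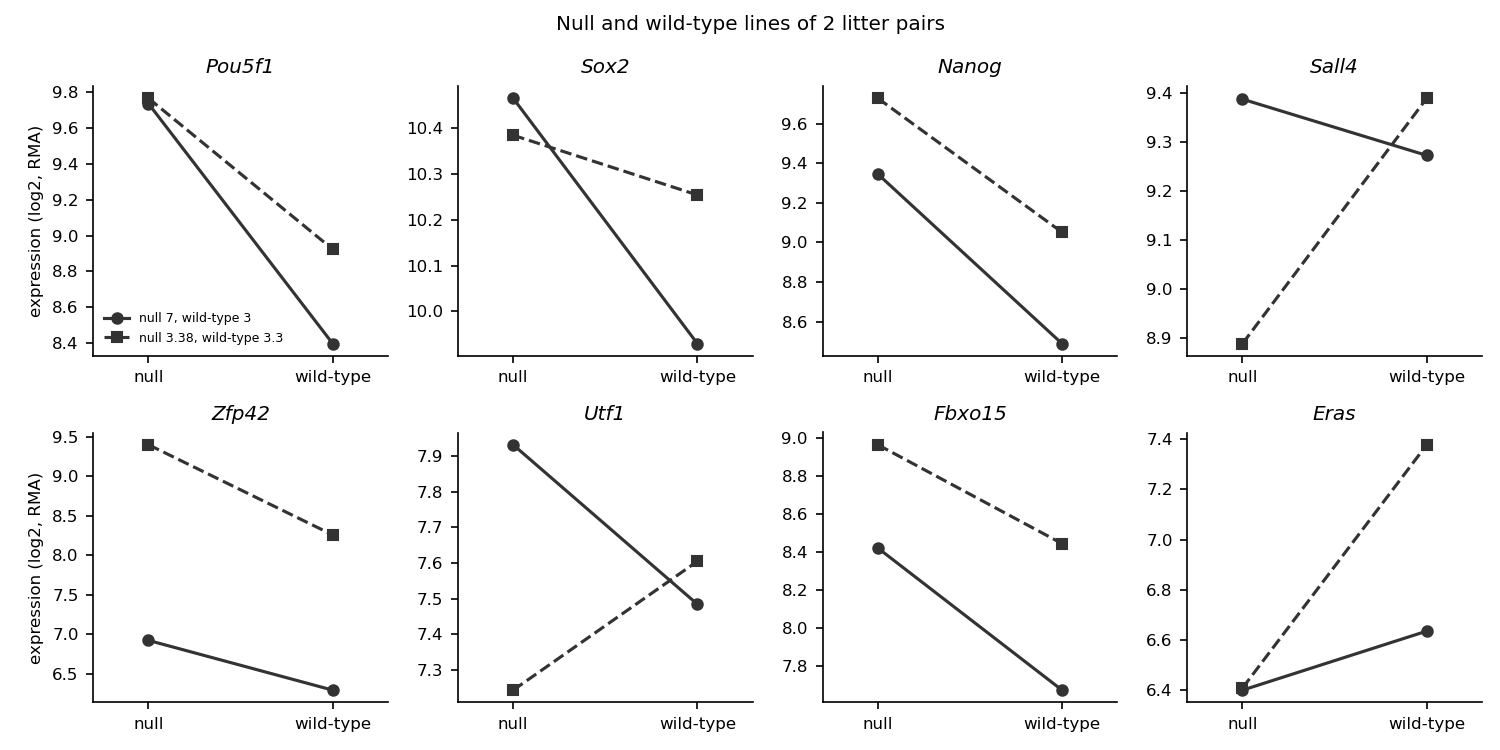
Expression (log2, RMA; each panel has its own axis) of the 8 factors in the 2 null and wild-type pairs of lines from the same litters, null on the left and wild-type on the right. Pou5f1, Sox2, Nanog, Zfp42 and Fbxo15 are higher and Eras is lower in the null line of both pairs, and Zfp42 differs more between pairs than within them.

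Of 36 other genes of the pluripotency network, 33 were measured, and 4 rose in null against wild-type ESCs, none fell and 29 did not pass, where 0.693% of all genes passed as higher and 0.440% as lower. The list was written with earlier results on these arrays known and is no independent evidence of direction. Nr0b1, a nuclear receptor that binds Oct4, had log2 values of 8.81, 8.71 and 8.42 in null lines 7, 3.34 and 3.38, 8.54 and 7.52 in the heterozygous lines 5 and 3.1, and 7.08, 6.69 and 7.06 in wild-type lines 3, 3.2 and 3.3. It rose by 1.70 log2 units (SE 0.25, limma adjusted p = 0.0370), and one heterozygous line stood with the null lines. Dppa5a, an RNA-binding protein gene of ESCs, rose with a log2 fold change of 1.23 (SE 0.15, limma adjusted p = 0.0301). Gdf3, a growth factor of the transforming growth factor beta family, rose by 1.16 and Dppa4, a chromatin protein gene of the early embryo, by 0.88 (adjusted p = 0.0330 and 0.0483 from limma). For each of the 4 genes all null lines lay above all wild-type lines.

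The means of 23 of the 33 were higher in null lines and their median log2 fold change was 0.68, against 0.40 for the 8 core factors and −0.01 over all genes. The null lines lay above all wild-type lines for 17 of the 33 and below them for 1, Tcf7l1, a Wnt pathway repressor of pluripotency genes, named here after its values were seen, as they did for 11.1% and 11.2% of all genes. Its detection call was present in every line but the null ones, and it was at least 1.91-fold lower in null ESCs (adjusted p = 0.0718 from limma). None of the 4 genes passed when wild-type line 3 or 3.2 or null line 7 was left out, or with the Eif2s3y call, the 3′ minus 5′ difference or the feeder marker mean as a covariate, and none passed on the signal values. The log2 fold changes of all 4 stayed above 0 in each of these fits. With the mean of all probe sets of a gene Gdf3 was at 0.52 (limma adjusted p = 0.114), and Dppa4 kept its call in 2 of 21 other settings.

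**Figure D5:**
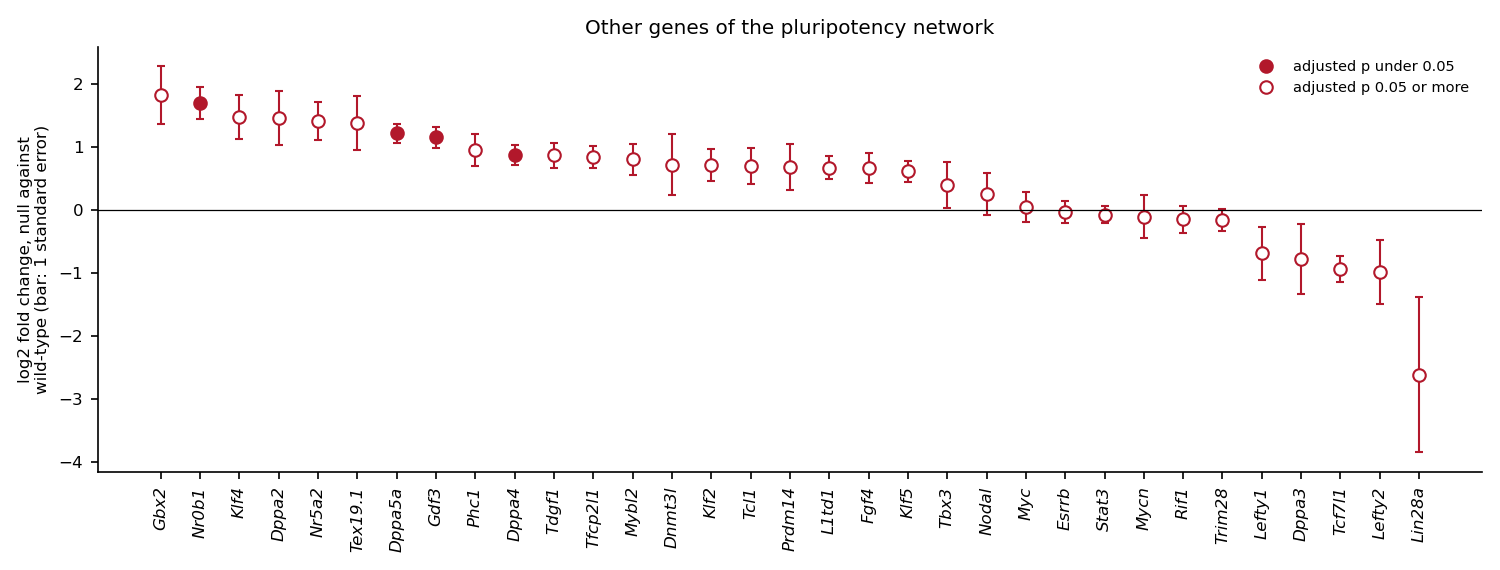
Log2 fold change in null against wild-type ESCs (point, with a bar of 1 standard error) of 33 other genes of the pluripotency network in descending order, filled where the adjusted p from limma was under 0.05. The 4 filled genes, Nr0b1, Dppa5a, Gdf3 and Dppa4, lie between 0.88 and 1.70, and 23 of the 33 points lie above 0.

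Among relatives of the 8 factors the genes that passed were lower in null ESCs. Of 25 relatives (other POU, Sox and Sall genes, Yy1 and Ras genes) 21 were measured, of which 7 were called present in every line. Among these 21, none rose, Sox4 and Pou3f1 fell and 19 did not pass, where 0.693% of all genes passed as higher and 0.440% as lower. The median log2 fold change was −0.11, against −0.01 over all genes, and 5 of the 21 were called present on no array. Sox4, a Sox factor of many differentiating tissues, had log2 values of 6.13, 7.13 and 6.26 in null lines 7, 3.34 and 3.38, 7.52 and 7.45 in the heterozygous lines 5 and 3.1, and 8.10, 8.58 and 7.85 in wild-type lines 3, 3.2 and 3.3. The 3 genotypes did not overlap, with the heterozygous lines in between, and the log2 fold change in null against wild-type ESCs was −1.67 (SE 0.28, limma adjusted p = 0.0429). Pou3f1, also known as Oct6, a POU factor of the postimplantation epiblast, had log2 values of 4.52, 5.34 and 4.75 in null lines, 5.81 and 5.41 in the heterozygous lines and 6.64, 6.11 and 5.98 in wild-type lines, again without overlap, and a log2 fold change of −1.37 (SE 0.25, limma adjusted p = 0.0473). With the mean of all probe sets of a gene Sox4 was at −0.50 (limma adjusted p = 0.0816) and Pou3f1 at −0.98 (limma adjusted p = 0.0946). Over 21 other settings Sox4 kept its call in 7 and Pou3f1 in 3. Neither kept it on signal values, with any of the covariates, or when wild-type line 3 or 3.2, null line 7 or 3.38 or a heterozygous line was left out.

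Of 11 postimplantation epiblast genes 10 were measured, of which Pou3f1 fell and 9 did not pass, with a median log2 fold change of −0.29. Of 7 primitive endoderm markers none passed and the median was −0.40. All 7 means were lower in null lines, where 46.8% of all genes had a higher mean. Only 1 of these 7 markers was called present in every line. The defining markers Gata6, Gata4 and Sox17, transcription factors of that layer, lay between 2.94 and 5.58 in all lines, and Foxa2 was called absent on all arrays. Of 7 trophectoderm markers none passed and the median was −0.0011, but 3 were called present on no array and 1 on all. Of 8 measured mesoderm and ectoderm markers none passed and the median was −0.03, with 5 called present on no array and 1 on all. Both medians thus rest in part on genes that were not detected. Of the SCF partners that F-box proteins such as Fbxo15 bind, Skp1 and Cul1 were called present in all lines, with log2 fold changes of −0.04 and −0.01, and Rbx1 was called absent on all arrays.

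Genes with the pattern most like that of a core factor were sought among 5289 genes called present in all 8 lines, by Pearson's r over the 8 lines, which fall into 3 genotypes, as a description. For Pou5f1 they were Eif3l, a translation initiation factor subunit (r = 0.993), Mto1, a mitochondrial tRNA modification enzyme (r = 0.993), and Rfc5, a subunit of the clamp loader of DNA replication (r = 0.989). For Nanog they were Dtl, AI467606 and Cystm1 (r = 0.944, 0.943 and 0.937), and for Sox2 Bvht, a long noncoding RNA gene, Srsf6, a splicing factor gene, and Psmd5, a proteasome chaperone gene (r = 0.899, 0.863 and 0.862). No gene was among the nearest 3 of more than 1 factor. Eif3l, like Pou5f1, was highest in the 3 null lines, at 10.26, 9.99 and 10.09 in lines 7, 3.34 and 3.38, and lowest in wild-type line 3.2, at 8.89.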

How the data were processed

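RNA of 8 ESC lines, extracted with Trizol, had been hybridized to Affymetrix Mouse Genome 430 2.0 arrays, 1 per line. The deposited log2 values came from RMA by the authors, and the deposited tables of each array held, for each probe set, a signal (of a scaling that no source used here names), a present or absent call and its p-value. The submitters' processing notes name RMA and limma. Where signal values stood in place of the RMA values in another setting, their log2 was centred on the median of each array. The 64 control probe sets among 45101 were not tested. Gene names came from the platform annotation, where 34945 probe sets had 1 gene, 932 had several and 9160 had none listed. The probe set with the highest mean stood for each of 18193 genes. All were fitted in limma 3.58.1 (R 4.3.3) with lmFit and eBayes over the 3 genotypes and no covariate, with Benjamini-Hochberg adjustment over all genes and a threshold of 0.05, and the fit was tested on simulated data. The core factors and gene lists were chosen with earlier results of these data known. Named were all core factors, list genes that passed, up to 4 per list, and the 3 nearest genes of Pou5f1, Sox2 and Nanog. The Eif2s3y, feeder marker and low detection alternatives were chosen after seeing the data. The study's threshold was a fold change, which was not used here.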

Additional observations from a re-analysis of the deposited data

How the results depend on the processing

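Of 366 log2 fold changes of core factors under up to 21 other settings, 348 kept their direction and their side of the threshold, 12 turned sign and 6 newly passed. None of the 8 passed in null against wild-type ESCs as fitted, and 1 passed when only genes called present in every line of a genotype were tested. Leaving out 1 line gave 0 to 1, with 1 without wild-type line 3.3. In null against heterozygous ESCs 1 passed with that filter, 1 with only the arrays of these genotypes, and 0 to 1 with 1 line left out. The number of core factors whose null and wild-type lines did not overlap was 2 of 8 as fitted, where 22.4% of all genes did not overlap, 1 on signal values (18.8%), 4 with the litter pairs as a block (44.8%), 4 over the lines without an Eif2s3y call (53.2%) and 2 to 4 with 1 line left out (22.4% to 35.4%), so that the counts with fewer lines stand against a higher share of all genes. Their median log2 fold change in null against wild-type ESCs was 0.12 with the 3′ minus 5′ covariate. In heterozygous against wild-type ESCs the sign turned with the mean of all probe sets for Sall4 (−0.0938) and Utf1 (−0.0044, with probe sets called absent), for Pou5f1 on signal values (0.0466) and with the feeder covariate (0.0536), and for Zfp42 without wild-type line 3.2 and heterozygous line 3.1 (0.079). Leaving out 1 line gave −0.44 to 0.25 for Pou5f1, −1.10 to 0.11 for Zfp42 and −0.0225 to 0.0490 for Utf1 in that comparison, and −0.042 to 1.45 for Zfp42 and −0.23 to 0.13 for Sall4 in null against wild-type ESCs, and the cause was not tested. Over all genes, 206 passed in null against wild-type ESCs, against 442 with the presence filter, over fewer genes, 138 with the mean of probe sets, 0 on signal values, 0 with the 3′ minus 5′ covariate, 3 with the Eif2s3y covariate, 1 with the feeder covariate, 5 without wild-type line 3.2 and heterozygous line 3.1, and, on leaving out 1 line, 3 for null line 7, 2 for wild-type line 3 and 4 for wild-type line 3.2. With the litter pairs as a replicate block 178 passed and no core factor did, with Pou5f1 at 1.09. The small number of lines limits what can be called, and the probe set that stood for Utf1 was not above background on any array.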

Other observations

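Lin28a, an RNA-binding protein gene of ESCs that blocks let-7 maturation, was picked after its values were seen. It had log2 values of 5.46, 6.52 and 7.27 in null lines 7, 3.34 and 3.38, 8.98 and 8.97 in the heterozygous lines 5 and 3.1, and 5.63, 10.90 and 10.58 in wild-type lines 3, 3.2 and 3.3. Wild-type line 3 stood with the null lines and apart from the other wild-type lines, and the log2 fold change in null against wild-type ESCs was −2.62 (SE 1.23, limma adjusted p = 0.347). Krt8, a keratin gene of trophectoderm also picked after its values were seen, had log2 values of 7.58, 10.20 and 7.30 in null lines, 8.05 and 9.31 in the heterozygous lines and 9.74, 10.30 and 10.30 in wild-type lines, with null line 3.34 near the wild-type lines, and did not pass in limma.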
